A study of Mus musculus with 6 samples.

Results

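The kinetochore is the protein assembly that ties a chromosome to the spindle, and the spindle checkpoint is the signalling system that holds a dividing cell back until every kinetochore is attached. The genes described here are 43 of this machinery in mouse liver, chosen by name from the centromere proteins, the Ndc80, Mis12 and Ska complexes, the checkpoint and the chromosomal passenger complex, out of 13582 genes tested on the arrays. All 43 had a probe, and 41 passed the filter on dim signals. Cenpf and Aurkb did not pass it and were given values without a test. Counts over the 43 genes describe this list and are no independent evidence of a direction.

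The PVBL livers were right lobes of male C57BL/6J mice, taken 3 days after the left branch of the portal vein, which carries blood from gut to liver, had been ligated. The sham livers came from sham-operated males of the same strain, also after 3 days. There were 3 PVBL and 3 sham samples, hybridised singly to single-colour Agilent arrays. The labels give no age and do not state that the samples came from different animals. The p-values therefore cover sample-to-sample spread, and some of it may be technical.

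At mitosis the centromere is marked by nucleosomes that hold the histone variant CENP-A. On these sits a constitutive network of CENP proteins, which in turn anchors the outer kinetochore, where the Ndc80 complex grips microtubules. Unattached kinetochores recruit the Mad and Bub proteins and the Rod-Zw10-Zwilch complex, which block the anaphase-promoting complex. The chromosomal passenger complex, with the kinase Aurora B, destabilises wrong attachments. Hepatocytes of adult liver rarely divide and re-enter the cell cycle when liver mass is lost, and many of these genes are transcribed mainly in G2 and mitosis.

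Promoter sequences are shown first, because genes of G2 and mitosis are known to share a short promoter element, the cell cycle genes homology region (CHR), which the MuvB complexes bind, and a CCAAT box, which NF-Y binds. The windows come from RefSeq on build GRCm38.p6 and run from 150 bases before to 30 bases after the annotated start. Capitals mark matches to the CHR (TTTGAA, or its variant TTCGAA) or the CCAAT box (CCAAT), searched on both strands, so that ATTGG and TTCAAA are matches of the other strand. Cdca8, at chr4:124936888-124937067 (minus strand), holds a CHR that overlaps a CCAAT match just after its start, and it was among the genes with a large rise.
Cdca8: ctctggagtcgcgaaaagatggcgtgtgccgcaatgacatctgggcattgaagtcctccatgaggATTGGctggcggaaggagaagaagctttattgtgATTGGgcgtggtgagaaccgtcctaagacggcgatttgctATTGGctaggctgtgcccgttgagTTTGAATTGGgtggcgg
Bub1, at chr2:127831830-127832009 (minus strand), stands for the variant of the element.
Bub1: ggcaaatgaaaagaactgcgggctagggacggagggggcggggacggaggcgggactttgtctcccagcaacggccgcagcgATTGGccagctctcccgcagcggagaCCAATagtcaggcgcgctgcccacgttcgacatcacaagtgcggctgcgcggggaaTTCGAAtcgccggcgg
Cenpa, at chr5:30666736-30666915 (plus strand), holds a CHR and a pair of CCAAT matches, with a smaller rise.
Cenpa: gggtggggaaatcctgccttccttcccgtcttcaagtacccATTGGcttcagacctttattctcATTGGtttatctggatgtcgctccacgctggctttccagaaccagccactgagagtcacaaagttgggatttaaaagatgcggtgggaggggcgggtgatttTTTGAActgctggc
Bub3, at chr7:131560220-131560399 (plus strand), holds both elements and rose less than 2-fold.
Bub3: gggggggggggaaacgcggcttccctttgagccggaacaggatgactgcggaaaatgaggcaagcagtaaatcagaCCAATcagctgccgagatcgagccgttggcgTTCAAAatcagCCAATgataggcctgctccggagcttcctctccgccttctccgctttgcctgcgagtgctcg
Birc5, at chr11:117849087-117849266 (plus strand), had the largest rise of the listed genes measured on all 6 arrays and holds no match in this stretch.
Birc5: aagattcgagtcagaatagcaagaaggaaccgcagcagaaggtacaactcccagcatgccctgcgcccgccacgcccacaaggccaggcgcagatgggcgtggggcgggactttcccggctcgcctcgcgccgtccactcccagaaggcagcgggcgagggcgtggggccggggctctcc

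Of the 43 genes 37 had a RefSeq promoter window of 300 bases (250 before to 50 after the start). A CHR or its variant lay in the window of 18 of these 37 genes (48.6%), against 21.7% of the 27025 genes in the table. The share was 17.0% for genes tested on the arrays and 19.9% for all genes that rose. Among the 37 it was 7 of 12 (58.3%) with a fitted rise of at least 16-fold and 4 of 9 (44.4%) under 2-fold. Within 50 bases of the start, a distance chosen after the positions had been seen, 15 of 37 (40.5%) held a match. The share was 6.12% for all genes in the table, 4.64% for genes tested on the arrays and 8.79% for all genes that rose. Hjurp and Bub3, which rose less than 2-fold, were among the 15. The CCAAT box was in 23 of 37 windows (62.2%), against 41.1% of all genes. A match says only that these letters are present, and genes such as Birc5 rose without one in the stretch shown. In the plot of match positions, 15 of the 18 genes with a CHR or variant match hold one within 50 bases of the start. Matches also lie farther off, in Bub1b (-188), Cenpl (-162), Zw10 (-148) and Cenpm (-83).

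**Figure D1:**
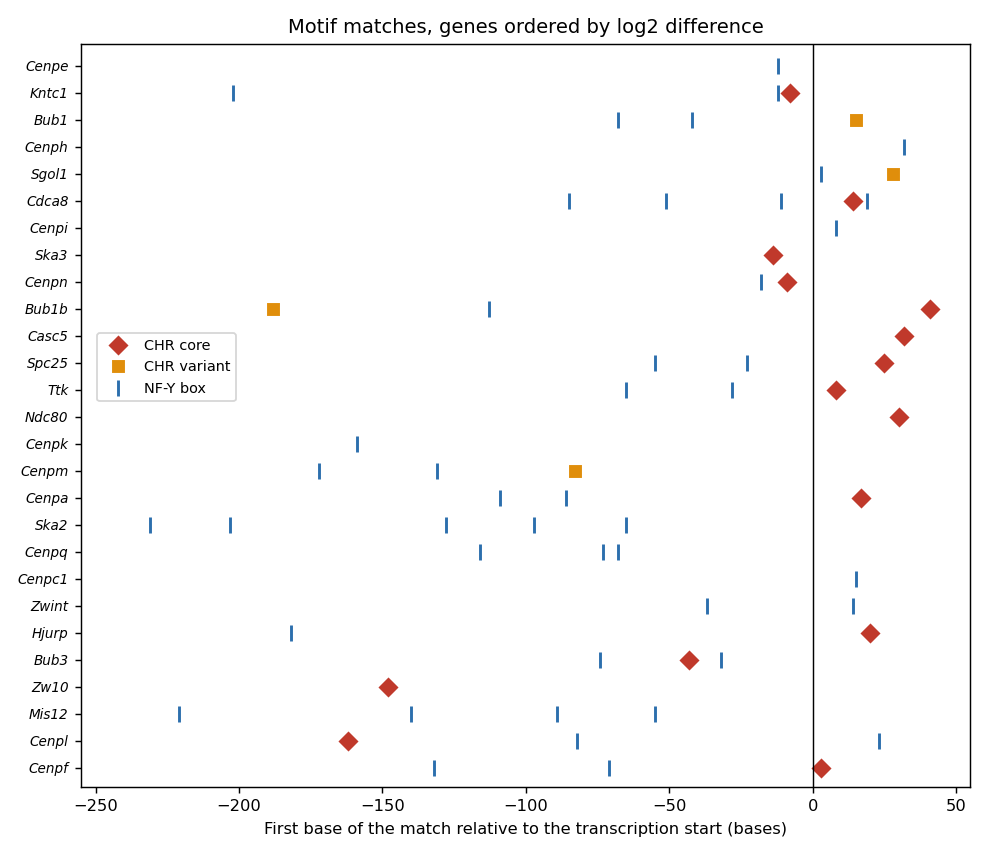
Positions of promoter element matches relative to the annotated start (bases, x axis) in the RefSeq windows, 1 row per gene with a match, ordered from the largest fitted log2 difference at the top; symbols mark the CHR, its variant and the CCAAT (NF-Y) box. In 15 rows a CHR or variant match lies within 50 bases of the start.

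Each array held 55681 probes, of which 48.1% to 53.6% were well above background, and no spot was saturated. Arrays correlated with r from 0.982 to 0.991 within PVBL, from 0.991 to 0.996 within sham, and from 0.947 to 0.960 between groups, over genes, which are not independent replicates. All arrays had the same scan date, with the PVBL arrays in slide row 2 and the sham arrays in slide row 1. Whether they lay on 1 slide was not checked. The effects of row and operation cannot be told apart. All 7 hepatocyte markers were measured, with summed relative signals of 3141 to 4196 in PVBL and 4276 to 4636 in sham.

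Levels are given as relative signal, the scanner's processed signal divided by the array's 75th percentile, so that 1 is the level of that percentile. Differences are PVBL minus sham on the log2 scale with the standard error (SE, n = 3 per group), tested with limma over all 13582 genes with Benjamini-Hochberg adjustment and called at an adjusted p under 0.05. Levels of different genes come from different probes and are not compared with each other. Where no sham array was well above background, the fold is given as a lower bound, written as at least that many fold. It is the PVBL mean over the array's lowest signal flagged as well above background, or over the gene's own signal where that is higher. That floor is no strict detection limit, since unflagged signals can lie above it. The bound holds only for the scanner's processed signal and not under another background correction. In whole tissue, more dividing cells and more transcript per cell cannot be told apart.

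Of the 41 genes tested 38 rose in PVBL liver, none fell and 3 were not called, and in all 38 every PVBL array lay above every sham array. Over all genes tested, 14.9% rose, 18.1% fell and 22.0% had all PVBL arrays above all sham arrays. Of the 41 genes 15 were below background on 1 or more sham arrays and were tested only because the PVBL arrays were bright, so a test of these could hardly come out otherwise. Among the 26 genes above background on all 6 arrays, tested with the genes that pass that filter, 23 rose, against 14.7% of all such genes. The fitted difference was above 0 for all 41 genes, so that none was lower at an unadjusted p under 0.05 either. Rises and falls over all genes were 2018 and 2454, against 1359 and 143 with spike-in scaling and 2622 and 1557 with median scaling, while 34 and 38 of the genes described here rose under these scalings and none fell. The median log2 difference of the 41 genes was 3.13, or 3.06 with 12 of them at their bound, against -0.10 over all genes tested. With the bound used where sham was below background, 31 genes rose at least 2-fold, against 6.72% of all genes tested, and 10 at least 16-fold, against 0.626%. Both counts include genes tested only because the PVBL arrays were bright, for which the filter nearly fixed the direction. Of these 10, only Birc5, Cdca8 and Zwilch were above background on all 6 arrays. With normexp background correction, which adds an offset of 50 units to every signal and so shrinks the folds of dim genes, 36 of the 41 rose, the median was 1.89, and Birc5 and Cdca8 alone rose at least 16-fold. Even at an offset of 0, normexp gave folds under the bound for every gene with a bound except Ska2. Cenph, for example, rose 21.3-fold, against a bound of 34.9-fold.

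**Figure D2:**
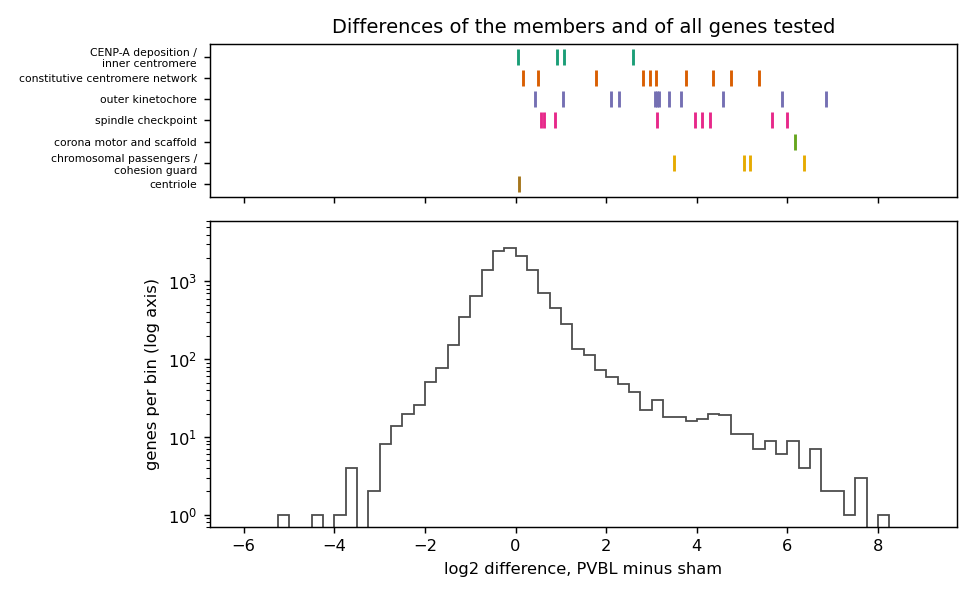
Distribution of log2 differences (PVBL minus sham, x axis) of the 41 kinetochore and checkpoint genes (top, 1 tick per gene, by role) and of all 13582 genes tested (bottom, genes per bin on a log axis). The 41 genes have a median of 3.13 and all lie above 0, while the median of all genes tested is -0.10.

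Of the genes for CENP-A deposition and the inner centromere 3 of 4 rose, against 14.9% of all genes tested. Their median log2 difference was 0.99, the lowest of any role with more than 1 gene tested. Cenpa, the centromeric histone H3 variant, had relative signals of 7.21, 7.67 and 7.35 in PVBL livers, against 1.07, 1.22 and 1.44 in sham livers. The groups were far apart, and the PVBL arrays were nearly alike, at a log2 difference of 2.59 ± 0.14 (6.01-fold, adjusted p = 3.99e-05). Hjurp, the chaperone that brings CENP-A to centromeres, gave 0.731, 0.609 and 0.653 in PVBL, against 0.323, 0.388 and 0.352 in sham. It rose 1.88-fold (0.91 ± 0.13, adjusted p = 0.00341), and its other probes gave 1.78-fold and 1.85-fold. Cenpc1, which reads the CENP-A nucleosome and links it to the outer kinetochore, gave 0.737, 0.784 and 0.636 in PVBL, against 0.368, 0.360 and 0.302 in sham. Its rise was 2.10-fold (1.07 ± 0.14, adjusted p = 0.00236). Cenpb, which binds a box in satellite DNA, was bright at 16.6, 15.7 and 15.6 in PVBL and 15.9, 16.3 and 14.1 in sham. The groups overlapped, and the difference of 0.05 ± 0.12 was not called (95% interval -0.23 to 0.33), with 0.09 in a second probe.

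On the same arrays Cenpa rose by 1.68 ± 0.15 log2 units more than Hjurp. The pair was 1 of 11 pairs of partner genes set against each other, picked after their values had been seen. Each pair's log ratio did not overlap between the groups. With 3 arrays against 3 this gives an exact two-sided permutation p of 0.1, the smallest this design allows, and 0.1 after adjustment over the 11. Picking the pairs on their values made this outcome likely, and the share of other gene pairs without overlap was not computed. The later pairs are therefore given as sizes with the SE of the difference. That SE covers the spread between arrays and not the choice of background correction.

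The constitutive centromere network rose in 9 of 10 genes, against 14.9% of all genes tested. Its median was 3.04, or 2.94 with 2 genes at their bound. Those 2 and Cenpi were tested only because the PVBL arrays were bright. Cenph, a subunit of the CENP-H/I/K/M group, gave 1.61, 2.72 and 1.49 in PVBL and 0.0456, 0.0484 and 0.0412 in sham. No sham array was well above background, and the rise was at least 34.9-fold (fitted difference 5.38 ± 0.24, adjusted p = 1.54e-05). Cenpi, its partner, gave 1.03, 1.74 and 0.965 in PVBL and 0.0360, 0.0325 and 0.0748 in sham, with sham 3 the highest of its group. Here 1 of 3 sham arrays was above background, and the rise was 27.0-fold (4.76 ± 0.37, adjusted p = 0.000216). Cenpn, which reads the CENP-A nucleosome together with Cenpl, gave 0.430, 0.479 and 0.318 in PVBL, against 0.0210, 0.0226 and 0.0162 in sham. It rose at least 7.51-fold (4.35 ± 0.20, adjusted p = 1.86e-05). Cenpl gave 2.35, 2.77 and 1.96 in PVBL and 2.21, 1.76 and 2.31 in sham. The groups overlapped for Cenpl, and its difference of 0.17 ± 0.18 was not called (adjusted p = 0.480, 95% interval -0.25 to 0.59).

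The other members of the network were measured on all arrays. Cenpk and Cenpm, of the same group as Cenph, rose 7.83-fold (adjusted p = 0.000439) and 7.01-fold (adjusted p = 0.00152). Cenpk gave 3.95, 6.91 and 3.46 in PVBL, against 0.555, 0.520 and 0.680 in sham, and its second probe gave 7.57-fold. Cenpt, which reaches out to the Ndc80 complex, gave 1.40, 1.58 and 1.25 in PVBL, against 0.143, 0.168 and 0.178 in sham, a rise of 8.61-fold. The CENP-O group was uneven. Cenpp gave 3.34, 4.13 and 2.49 in PVBL, against 0.219, 0.279 and 0.228 in sham, a rise of 13.5-fold, and Cenpq rose 3.40-fold (adjusted p = 0.00400). Cenpo gave 1.03, 1.17 and 1.12 in PVBL, against 0.826, 0.868 and 0.660 in sham. Its rise of 1.42-fold (0.50 ± 0.14, adjusted p = 0.0356) was no longer called when any 1 of the 6 arrays was left out (0.38 to 0.58). It was 3.25 ± 0.23 log2 units smaller than that of Cenpp. With normexp this gap was smaller, at differences of 2.85 for Cenpp and 0.38 for Cenpo. A second, dimmer Cenpo probe, above background on only 1 sham array, gave 1.64-fold. For Cenpo and Cenpq, printed on 9 or 10 spots per array, the SD between spots of an array was 0.063 to 0.136 log2 units.

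With normexp, Cenph, Cenpi and Cenpn rose 8.09-fold, 4.95-fold and 2.24-fold, Cenpp 7.22-fold, Cenpt 3.72-fold and Cenpm 4.25-fold. All stayed called.

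**Figure D3:**
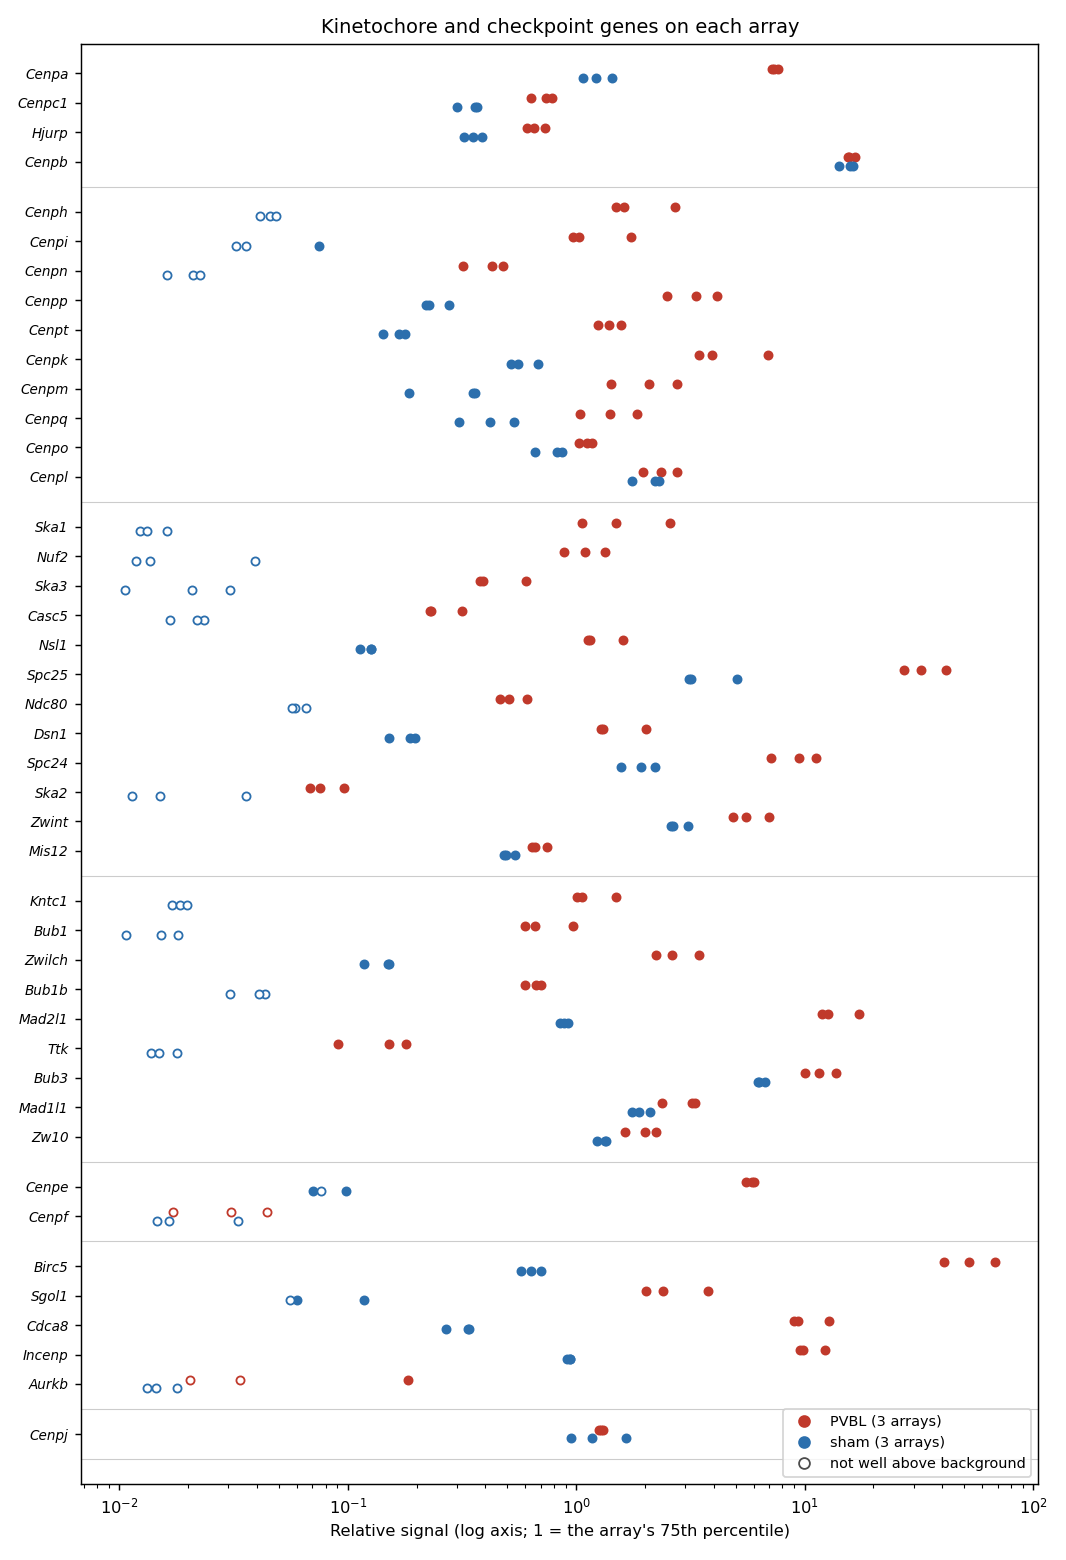
Relative signal on each array (log axis, 1 is the array's 75th percentile) for the 43 genes, grouped by role, with PVBL and sham arrays as separate points and open symbols where a spot was not well above background. The groups do not overlap for 38 of the 41 genes tested.

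All 12 outer kinetochore genes rose, against 14.9% of all genes tested, with a median of 3.14, or 3.07 with 6 at their bound. Those 6 were tested only because the PVBL arrays were bright. The Ska complex, which couples kinetochores to moving microtubule ends, rose in all 3 subunits. Ska1 gave 1.50, 2.57 and 1.06 in PVBL, against 0.0123, 0.0132 and 0.0162 in sham, where no array was well above background. The rise was at least 29.8-fold (6.85 ± 0.31, adjusted p = 1.70e-05). Ska3, its partner, gave 0.391, 0.601 and 0.379 in PVBL and 0.0208, 0.0106 and 0.0304 in sham, at least 8.32-fold (4.57 ± 0.39, adjusted p = 0.000332). Ska2, the smallest subunit, stayed dim at 0.0685, 0.0960 and 0.0755 in PVBL, against 0.0114, 0.0359 and 0.0151 in sham. It rose at least 1.48-fold (2.11 ± 0.40, adjusted p = 0.00919), and with normexp its difference of 0.14 was not called (adjusted p = 0.499).

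The Ndc80 complex, the main microtubule grip, rose in all 4 subunits, against 14.9% of all genes tested. Nuf2 gave 1.10, 1.34 and 0.881 in PVBL, against 0.0118, 0.0137 and 0.0391 in sham, at least 20.3-fold (5.88 ± 0.44, adjusted p = 0.000199). A second Nuf2 probe was above background on no array and could show no difference. Ndc80 itself gave 0.466, 0.607 and 0.507 in PVBL, against 0.0585, 0.0654 and 0.0569 in sham, at least 8.61-fold (adjusted p = 1.71e-05). Spc25 and Spc24, which dock the complex, were measured on all arrays. Spc25 gave 32.3, 41.6 and 27.2 in PVBL, against 3.12, 3.20 and 5.08 in sham, 8.97-fold higher. Spc24 gave 9.44, 11.3 and 7.14 in PVBL and 1.57, 2.22 and 1.93 in sham, 4.83-fold higher. Spc25 rose by 0.89 ± 0.25 log2 units more than Spc24.

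The Mis12 complex, the platform between inner and outer kinetochore, was uneven as well. Nsl1 rose 10.5-fold (adjusted p = 2.65e-05) with 1.13, 1.61 and 1.15 in PVBL, against 0.126, 0.127 and 0.113 in sham, and a dimmer second probe, with no sham array above background, gave at least 2.01-fold. Dsn1 gave 1.28, 2.02 and 1.31 in PVBL, against 0.151, 0.197 and 0.188 in sham, a rise of 8.45-fold. Mis12 gave 0.744, 0.658 and 0.643 in PVBL and 0.485, 0.539 and 0.491 in sham. The groups were apart by a narrow margin, and its 1.35-fold rise (0.43 ± 0.12, adjusted p = 0.0337) was called without PVBL 3 and lost its call without any other array (0.37 to 0.48). Nsl1 and Dsn1 rose by 2.96 ± 0.21 and 2.65 ± 0.26 log2 units more than Mis12. With normexp these gaps were smaller, at differences of 1.88 for Nsl1, 1.97 for Dsn1 and 0.33 for Mis12. Casc5 (Knl1), the scaffold that gathers Bub proteins, gave 0.231, 0.316 and 0.230 in PVBL, against 0.0234, 0.0219 and 0.0166 in sham, at least 4.77-fold (adjusted p = 3.23e-05). Zwint, which binds that scaffold, gave 5.53, 6.96 and 4.85 in PVBL, against 3.09, 2.65 and 2.61 in sham, a rise of 2.06-fold (adjusted p = 0.00465). With normexp the rises were 7.13-fold for Ska1, 4.99-fold for Nuf2, 2.85-fold for Ska3, 3.67-fold for Nsl1, 3.92-fold for Dsn1, 2.36-fold for Ndc80 and 1.77-fold for Casc5.

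All 9 checkpoint genes rose, against 14.9% of all genes tested, with a median of 3.96, or 3.60 with 4 at their bound. Those 4 were tested only because the PVBL arrays were bright. The Rod-Zw10-Zwilch complex, which brings dynein and Mad1 to kinetochores, was uneven, and its subunit Zw10 had the smallest rise of the group. Kntc1 (Rod) gave 1.06, 1.50 and 1.01 in PVBL, against 0.0171, 0.0184 and 0.0197 in sham, at least 21.8-fold (5.99 ± 0.18, adjusted p = 4.22e-06). Zwilch gave 2.62, 3.45 and 2.23 in PVBL, against 0.152, 0.117 and 0.150 in sham, 19.6-fold (4.29 ± 0.20, adjusted p = 1.70e-05), and its second probe gave 17.6-fold. Zw10, which also works in membrane traffic between mitoses, gave 2.00, 2.23 and 1.64 in PVBL, against 1.24, 1.34 and 1.35 in sham. The Zw10 groups were apart, with a rise of 0.57 ± 0.15 (1.48-fold, adjusted p = 0.0253) that kept its call without PVBL 3 and lost it without any other array (0.47 to 0.59). Zwilch rose by 3.72 ± 0.16 log2 units more than Zw10. With normexp this gap was smaller, at differences of 3.00 for Zwilch and 0.56 for Zw10.

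Bub1, the kinase that marks centromeric chromatin and recruits other checkpoint proteins, gave 0.596, 0.973 and 0.660 in PVBL, against 0.0107, 0.0152 and 0.0181 in sham. It rose at least 13.5-fold (5.66 ± 0.26, adjusted p = 1.70e-05). Its probe had up to 10 spots per array, and their SD was 0.126 to 0.136 log2 units on the PVBL arrays, less than the SD of 0.374 between those arrays. Bub1b (BubR1), part of the inhibitor of the anaphase-promoting complex, gave 0.664, 0.705 and 0.594 in PVBL, against 0.0434, 0.0305 and 0.0407 in sham, at least 12.2-fold (adjusted p = 1.14e-05). Ttk (Mps1), the kinase that starts the signal, gave 0.180, 0.152 and 0.0909 in PVBL, against 0.0137, 0.0150 and 0.0179 in sham. Ttk rose at least 2.53-fold (3.13 ± 0.26, adjusted p = 0.000308), and with normexp its difference of 0.24 was not called (adjusted p = 0.296).

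Mad2l1 (Mad2), the core of the inhibitor, was measured on all arrays, with 12.6, 17.4 and 11.9 in PVBL, against 0.849, 0.918 and 0.887 in sham. It rose 15.6-fold (3.96 ± 0.17, adjusted p = 1.27e-05). Its other probes gave 11.0-fold and at least 17.1-fold, the second with no sham array above background. Mad1l1 (Mad1), which templates Mad2, gave 3.30, 3.22 and 2.37 in PVBL, against 1.89, 2.10 and 1.75 in sham. Its rise of 1.53-fold (0.62 ± 0.17, adjusted p = 0.0292) kept its call without PVBL 3 and lost it without any other array (0.53 to 0.69). Bub3, which binds Bub1 and BubR1 and carries them to Knl1, gave 11.6, 13.7 and 10.0 in PVBL, against 6.28, 6.72 and 6.25 in sham, 1.82-fold higher (0.87 ± 0.15, adjusted p = 0.00577). Mad2l1 rose by 3.35 ± 0.16 log2 units more than Mad1l1 and by 3.098 ± 0.066 more than Bub3. With normexp, Kntc1 rose 5.93-fold, Zwilch 7.98-fold, Bub1 3.77-fold and Bub1b 3.57-fold.

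**Figure D4:**
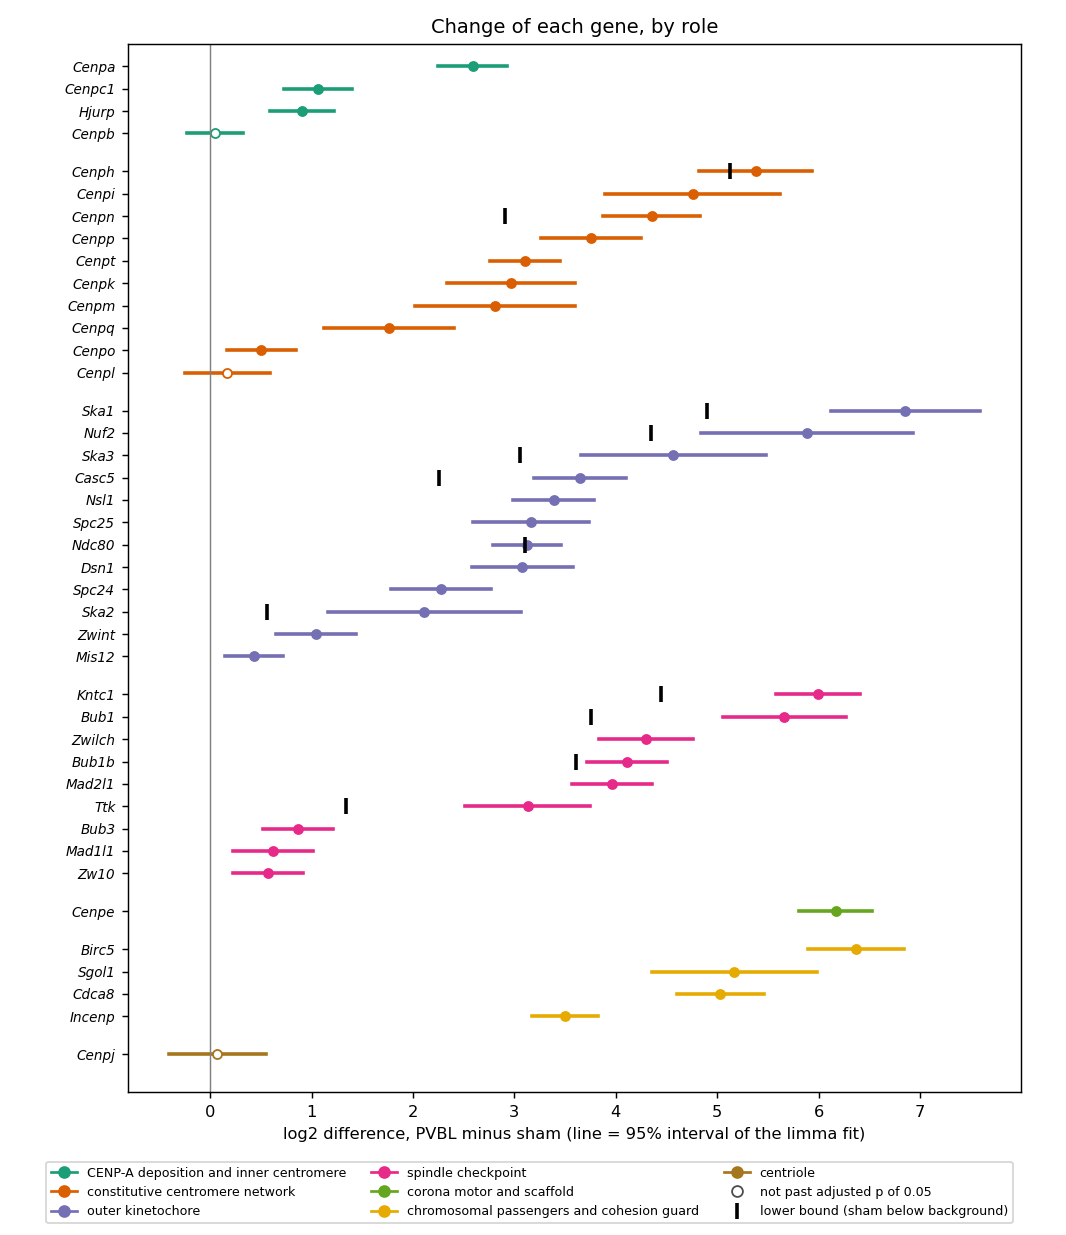
Log2 difference (PVBL minus sham, x axis) with its 95% interval for the 41 genes tested, coloured by role, with open symbols for genes not called and a black tick at the lower bound where sham was below background. Among the genes above background on all 6 arrays Birc5 lies farthest right at 6.37, while Cenpb, Cenpl and Cenpj lie near 0.

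Cenpe, the kinesin of the kinetochore corona that carries chromosomes to the spindle equator, gave 5.54, 5.90 and 6.00 in PVBL and 0.0978, 0.0702 and 0.0765 in sham. The PVBL arrays were nearly alike, and 2 of 3 sham arrays were above background. The rise was 72.0-fold (6.17 ± 0.15, adjusted p = 2.38e-06), or 15.9-fold with normexp. Cenpf, the large corona scaffold, gave 0.0309, 0.0441 and 0.0173 in PVBL, against 0.0146, 0.0332 and 0.0164 in sham. No array was well above background for the Cenpf probe, and the groups overlapped, so these values show no level for it.

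The chromosomal passenger complex and the cohesion guard Sgol1 rose in all 4 genes tested, against 14.9% of all genes. Their median was 5.10. Of the 4, Sgol1 was tested only because the PVBL arrays were bright. Birc5 (survivin), which brings the complex to centromeres, gave 52.4, 68.1 and 41.0 in PVBL, against 0.573, 0.636 and 0.705 in sham. It rose 82.8-fold (6.37 ± 0.20, adjusted p = 4.98e-06), or 66.1-fold with normexp. A second Birc5 probe rose at least 109-fold, with no sham array above background, and the remaining one 70.2-fold, with 1. Cdca8 (borealin), its partner at the centromere, gave 9.39, 12.8 and 8.97 in PVBL, against 0.337, 0.339 and 0.269 in sham, a rise of 32.7-fold (5.03 ± 0.18, adjusted p = 7.08e-06), 19.4-fold in its second probe and 18.0-fold with normexp. Incenp, the scaffold that holds the kinase, gave 9.52, 12.3 and 9.85 in PVBL, against 0.936, 0.938 and 0.913 in sham, 11.3-fold higher (adjusted p = 9.55e-06), with 13.1-fold in its second probe. Birc5 rose by 2.87 ± 0.17 and Cdca8 by 1.53 ± 0.11 log2 units more than Incenp.

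Sgol1 (shugoshin), which protects centromeric cohesin until anaphase, gave 2.40, 3.79 and 2.01 in PVBL, against 0.0602, 0.0557 and 0.118 in sham, with 2 of 3 sham arrays above background. It rose 36.0-fold (5.17 ± 0.35, adjusted p = 0.000106), or 8.51-fold with normexp. Aurkb, the kinase of the passenger complex, had 1 probe, which gave 0.0204, 0.183 and 0.0338 in PVBL, against 0.0132, 0.0144 and 0.0179 in sham. Only PVBL 2 was well above background for Aurkb, so the values of the other arrays show no level for it. Every PVBL array lay above every sham array, as in 22.0% of all genes tested. Tested with no filter on dim probes, the Aurkb difference of 1.74 ± 0.78 was not called (adjusted p = 0.190). Cenpj, a centriole protein that carries a centromere-style name, gave 1.29, 1.31 and 1.26 in PVBL, against 1.17, 1.65 and 0.951 in sham. The Cenpj groups overlapped, with the PVBL values inside the sham range, and the difference of 0.07 ± 0.20 was not called (95% interval -0.41 to 0.55).

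The 3 PVBL arrays differed among themselves in a shared way. Among the 38 genes that rose, PVBL 2 was the highest of the 3 arrays in 33 (86.8%) and PVBL 3 the lowest in 28 (73.7%). Over all 2018 genes that rose, PVBL 2 was the highest in 984 (48.8%) and PVBL 3 the lowest in 890 (44.1%). The median deviation from the PVBL mean of the 38 genes was -0.05, 0.30 and -0.23 log2 units on PVBL 1, 2 and 3, against -0.03, 0.06 and -0.05 for all genes that rose. The 6 genes of the MCM2-7 helicase, which unwinds DNA in S phase, had medians of -0.19, 0.46 and -0.24, with PVBL 2 highest in all 6. Among the 8 condensin genes PVBL 2 was highest in 7 and PVBL 3 lowest in 3. PVBL 3 also stood apart in markers of other cells, named here after their values were seen. It was the lowest PVBL array for 7 of 7 hepatocyte markers, and for 48.4% of all genes tested. The Kupffer cell genes Cd5l (44.3, 35.3 and 115 in PVBL, against 66.0, 56.7 and 62.0 in sham) and Clec4f (14.1, 13.7 and 34.5 in PVBL, against 28.5, 26.0 and 29.9 in sham) were highest on PVBL 3. Without PVBL 3, 37 of the 41 genes rose and their median was 3.31. The SD between PVBL arrays was 0.05 log2 units for Cenpa and 0.06 for Cenpe, and 0.64 for Ska1. Genes of 1 library share that library, so this is a description of 3 samples.

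**Figure D5:**
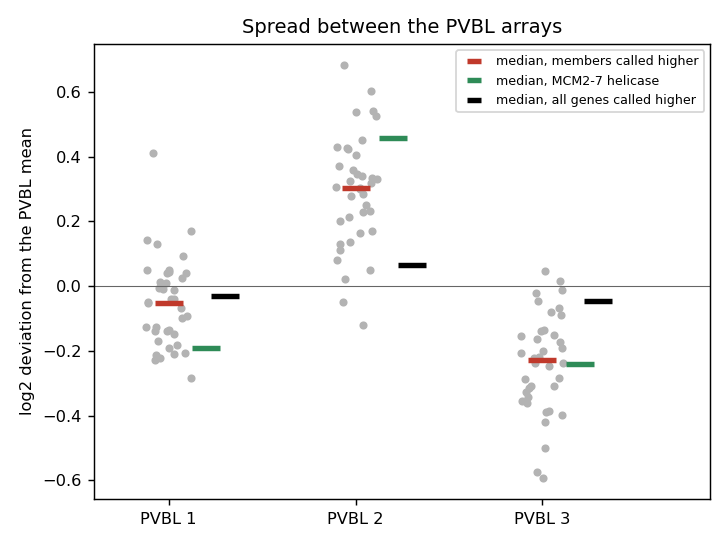
Deviation of each PVBL array from the PVBL mean (log2 units, y axis) for the 38 genes that rose, 1 point per gene and array, with bars for their median and for the medians of the MCM2-7 helicase and all genes that rose. PVBL 2 has a median of 0.30 and PVBL 3 of -0.23 among the 38 genes.

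Beyond the 43 genes, a list of 28 other kinetochore genes had 26 tested, of which 16 rose, 1 fell and 9 were not called (14.9% of all genes rose and 18.1% fell), with a median of 1.02. No sham array was above background for the 4 genes with the largest fitted rises, so their order was not measured. They were Oip5, part of the Mis18 complex that licenses CENP-A loading (at least 26.6-fold), the microtubule-depolymerising kinesin gene Kif2c (at least 12.9-fold), the CENP-O group gene Cenpu (at least 25.3-fold) and Sgol2, the second shugoshin (at least 6.57-fold). Cenps, of the CENP-S/X pair, rose at least 13.3-fold and Trip13, an ATPase that remodels Mad2, 8.94-fold with all arrays above background, both named after their values were seen. Pinx1, known in human cells as a telomerase inhibitor found at kinetochores, was the one that fell. It gave 4.63, 4.07 and 5.29 in PVBL, against 8.02, 9.26 and 8.99 in sham, a difference of -0.91 ± 0.14 (adjusted p = 0.00421), and with spike-in scaling no gene of this list was called lower. All 6 MCM2-7 genes rose (median 3.45), as did all 8 condensin genes, whose products compact mitotic chromosomes (median 2.66, or 2.42 with 1 at its bound).

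Markers of other cell types moved beside these genes, and their part in the result was not tested. The counts, to be read against the 14.9% of all genes that rose and the 18.1% that fell, often depended on 1 array or on the scaling. Of 5 biliary markers tested 3 rose, with summed relative signals of 6.85 to 21.2 in PVBL and 1.92 to 4.25 in sham. Spp1 made up most of the biliary sums. The 1 that fell (Cftr, named after its value was seen) lost its call with median, quantile or spike-in scaling and without any 1 array other than PVBL 3. Of 7 stellate cell markers 2 rose and 1 fell (sums 91.1 to 101 in PVBL and 106 to 117 in sham), and the fall was lost with spike-in scaling and without PVBL 1, sham 1 or sham 2. Dcn, which was not called, made up most of the stellate sums, at 84.1 to 91.3 in PVBL and 102 to 112 in sham. Of 6 macrophage markers Marco rose (sums 111 to 278 in PVBL and 143 to 162 in sham), and none fell, against 5 that fell without PVBL 3 and 4 with array weights.

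None of the T cell, B cell, erythroid, endothelial or neutrophil markers rose under any setting tried. Of 7 endothelial markers 2 fell, against 6 without PVBL 3, 7 with array weights, 0 with spike-in scaling, and 1 without PVBL 1 or any 1 sham array. Endothelial sums were 44.9 to 66.9 in PVBL and 104 to 111 in sham, of which Clec4g alone gave 13.3 to 30.6 in PVBL and 52.3 to 58.3 in sham. Of 5 erythroid markers 3 fell, against 1 with spike-in scaling and 2 without any 1 array other than PVBL 3, with sums of 16.4 to 28.9 in PVBL and 38.2 to 48.0 in sham. Alas2 made up most of the erythroid sums. Of 5 T cell markers 2 fell, against 0 with spike-in scaling, 4 with array weights and 1 without any 1 array other than PVBL 3 (3 without it). Of 5 B cell markers 1 fell, against 2 without PVBL 2, 4 with array weights and 0 with spike-in scaling. None of 3 neutrophil markers fell, against 1 with array weights, with the replicate block or in the authors' deposited table. Of 7 hepatocyte markers none was called, although 4 had all PVBL arrays below all sham arrays, and 4 fell with array weights, 2 in the authors' deposited table and 1 without PVBL 1 or PVBL 3.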

How the data were processed

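Gene expression was measured in 6 liver samples, 3 PVBL and 3 sham, grouped and numbered by the labels' source names. The deposited scanner files hold intensity values per spot, already corrected for background per the file headers, made with Agilent Feature Extraction 10.7.3.1, while the submitters' processing notes name version 9.1. The deposited value table holds log2 values. Their scale matched the main values below after centring each probe on its median (r at least 0.9997), which settles their direction while the level is lost by the centring, with column medians of -0.18, -0.15 and -0.22 for PVBL and 0.17, 0.15 and 0.18 for sham. In 100% of its 7850 rows the groups did not overlap, so it was used only as an alternative.

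Control spots and outlier spots (115 to 201 on an array) were dropped, repeat spots averaged, and each array's 75th percentile of the log2 processed signal subtracted. A probe whose spots were all outliers kept its flagged value (17 to 34 probes on a PVBL array, 5 to 9 on a sham array). Tested were the 27913 of 55681 probes well above background in the whole of 1 group or both, and the brightest probe stood for a gene. Of all probes 26413 (47.4%) were named by RefSeq accession, and 29268 were unnamed. The fit used limma (version 3.58.1, R 4.3.3) and was checked on simulated data. The planned normexp alternative used median signals, because the files hold no mean signal column. The number of arrays limits the precision.

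The 43 genes and all lists were chosen with earlier results of these data known. All 43 were named. Per-array values were planned for the 3 largest differences of each role, for genes not called and for genes whose probes disagree, and others were added. The check of replicate numbers does not settle whether they pair the samples. Deviations from the group means, over genes, correlated at 0.157, -0.060 and 0.182 for same-numbered arrays. For arrays with unlike numbers the range was -0.235 to 0.168. PVBL and sham arrays of the same number also shared a slide column. In all, 17 alternative settings were tried.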

Additional observations from a re-analysis of the deposited data

How the results depend on the processing

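Under 17 settings the 43 genes gave between 34 and 38 rises and no fall, except that 23 of 26 rose where only probes above background on all 6 arrays were kept, a filter that removes genes dim in sham. Of 678 gene values under these settings, 643 kept direction and call, 33 lost their call and 2 changed sign. Of the 643, 37 came from the authors' deposited table, where the groups overlap in no row, so these could hardly come out otherwise. The sign changes were Cenpb and Cenpj, neither called, at -0.012 and -0.11 without sham replicate 3 (ranges with 1 array left out -0.012 to 0.090 and -0.11 to 0.29). The lost calls were those of Cenpo, Mad1l1, Mis12 and Zw10, and, with normexp, of Ska2 and Ttk, and apart from the normexp offset the cause was not tested. Spike-in scaling (0.95, 1.06, 0.88 and 1.02) and no filter on dim probes took the calls of these 4. The median of 3.13 was 3.58 with spike-in scaling, 1.89 and 2.65 with normexp at offsets of 50 and 0, 2.43 on all 6 arrays above background, and 3.02 to 3.31 with 1 array left out. Of the other kinetochore genes 16 rose, or 7 with all 6 arrays above background and 14 to 16 with 1 array left out. One fell, against 0 with spike-in scaling, 2 in the authors' deposited table, 4 with array weights and 1 to 3 with 1 array left out (3 without PVBL replicate 2). Rises over all genes (2018) were 3303 with array weights and 1305 without sham replicate 1, and falls (2454) were 4584 and 1091. With the replicate block 36 of the 43 genes rose, the calls of Cenpo (adjusted p = 0.0584) and Mis12 (adjusted p = 0.0715) being lost. Whether the replicate numbers pair the samples is not settled. Depth on arrays is signal over background, which limits Cenpf, Aurkb and the 12 genes given as bounds.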
